A study of Mus musculus with 6 samples.

Results

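The 10 genes described here encode CCN proteins, the coactivators YAP and TAZ, 2 of the TEAD DNA-binding partners of YAP and TAZ, and a pair of genes known as YAP/TEAD targets. They were Ctgf, Cyr61, Nov and Wisp1 (current symbols Ccn2, Ccn1, Ccn3 and Ccn4), Ankrd1, Amotl2, Yap1, Wwtr1 (which encodes TAZ), Tead1 and Tead2. Every probe of the array whose platform annotation names a member was taken, which gave 14 of 25697 probes and 9 of the 10 genes. Nov has no named probe in the annotation used and is not analysed here. Of the 14 probes, 10 probes of 7 genes were detected (detection p-value below 0.05) by 3 or more of the 6 arrays and were tested.

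The study measured transcripts on Illumina bead arrays in 6 brain tumours that grew in SCID mice from transplanted cells and were taken when neurological symptoms appeared. The 3 Olig2cre/cre tumours (Olig2cre/cre;p53fl/fl;hEGFRvIII) carried cre at both Olig2 alleles, and the 3 Olig2cre/+ tumours (Olig2cre/+;p53fl/fl;hEGFRvIII) at 1. Both groups shared the floxed p53 alleles, the human EGFRvIII gene, a truncated EGF receptor that signals without ligand, the SCID host and the ages of 45, 47 and 50 days. Olig2 encodes a basic helix-loop-helix factor that marks oligodendrocyte precursors and many gliomas, and cre is expressed from its locus, so recombination depends on cells in which that locus is active. SCID mice lack mature T and B cells but keep vessels, microglia and other host cells, whose RNA enters a bulk tumour sample. Neither the number of cell lines behind the tumours nor the promoter of the EGFRvIII gene is given in the sources used here, so the p-values reflect only the spread among these tumours.

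YAP and TAZ are coactivators without a DNA-binding domain of their own. In the Hippo pathway, the kinases MST1/2 activate the kinases LATS1/2, which phosphorylate YAP and TAZ and keep them in the cytoplasm. Unphosphorylated YAP and TAZ enter the nucleus, bind TEAD factors and raise transcription of genes such as Ctgf, Cyr61, Ankrd1 and Amotl2. CCN proteins are secreted, cysteine-rich matricellular proteins that bind integrins and growth factors. In brain, Ctgf is also transcribed in neurons of the deepest cortical layer and in vessel walls. Transcript levels do not measure the phosphorylation or location of YAP and TAZ.

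The promoter sequences below are shown because TEAD factors bind the letters GGAATG, or CATTCC on the other strand. Windows of the 250 bases upstream of an annotated RefSeq start were used. The set of windows available here held 6 of the 10 members (Cyr61, Ankrd1, Amotl2, Yap1, Wwtr1 and Tead2). It held none for Ctgf, Nov, Wisp1 and Tead1. Capitals mark GGAATG or CATTCC.
Cyr61 (GRCm38.p6, chr3:145649986-145650235, minus strand): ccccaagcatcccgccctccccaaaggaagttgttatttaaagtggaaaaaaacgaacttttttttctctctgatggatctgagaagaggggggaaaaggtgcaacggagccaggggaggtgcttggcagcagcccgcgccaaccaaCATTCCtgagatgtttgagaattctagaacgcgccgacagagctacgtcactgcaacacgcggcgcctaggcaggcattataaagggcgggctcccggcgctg
Ankrd1 (GRCm38.p6, chr19:36119845-36120094, minus strand): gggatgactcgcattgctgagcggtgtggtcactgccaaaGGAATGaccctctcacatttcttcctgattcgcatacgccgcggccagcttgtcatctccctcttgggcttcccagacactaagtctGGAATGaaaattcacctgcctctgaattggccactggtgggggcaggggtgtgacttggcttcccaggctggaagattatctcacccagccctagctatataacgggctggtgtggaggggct
Amotl2 (GRCm38.p6, chr9:102717554-102717803, plus strand): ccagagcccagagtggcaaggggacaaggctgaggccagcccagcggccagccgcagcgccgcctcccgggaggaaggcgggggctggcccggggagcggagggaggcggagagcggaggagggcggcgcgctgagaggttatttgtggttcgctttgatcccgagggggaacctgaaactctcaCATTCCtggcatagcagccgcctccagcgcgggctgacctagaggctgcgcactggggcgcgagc
Yap1 (GRCm38.p6, chr9:8004597-8004846, minus strand): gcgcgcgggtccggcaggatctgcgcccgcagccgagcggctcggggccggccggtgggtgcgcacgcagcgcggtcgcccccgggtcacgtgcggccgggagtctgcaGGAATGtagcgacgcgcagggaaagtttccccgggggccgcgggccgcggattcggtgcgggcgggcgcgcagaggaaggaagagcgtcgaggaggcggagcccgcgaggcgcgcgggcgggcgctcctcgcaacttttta
Wwtr1 (GRCm38.p6, chr3:57575911-57576160, minus strand): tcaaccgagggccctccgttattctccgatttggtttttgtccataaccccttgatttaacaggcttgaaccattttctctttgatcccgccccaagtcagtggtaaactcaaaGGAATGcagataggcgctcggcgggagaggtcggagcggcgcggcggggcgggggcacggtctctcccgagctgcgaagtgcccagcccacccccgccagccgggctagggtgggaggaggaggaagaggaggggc
The motif GGAATG stood 1 time in the windows of Cyr61, Amotl2, Yap1 and Wwtr1 and 2 times in that of Ankrd1. It stood at -103 to -98 from the start in Cyr61, -65 to -60 in Amotl2, -141 to -136 in Yap1 and -136 to -131 in Wwtr1, and at -210 to -205 and -123 to -118 in Ankrd1. The Amotl2 window lay inside the annotated gene, which begins at chr9:102717091. The Yap1 window overlapped its gene, which extends to chr9:8004638. For both, the start used was thus not the outermost annotated one. A further annotated start of Wwtr1 has a window that overlaps the one shown and holds the same copy. The Tead2 window held no copy. Among all 32851 windows of this length in the table, 12.642% held at least 1 copy on either strand and 1.023% held more than 1. The AP-1 motif TGANTCA, which is often bound beside TEAD factors and was also searched on both strands, was in no member window and in 6.749% of all windows. The letters are a description of these windows, and binding was not measured.

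Levels are normalized log2 intensities, and differences are Olig2cre/cre minus Olig2cre/+ on that scale, from a limma fit over all 14606 tested probes with Benjamini-Hochberg adjustment and a threshold of 0.05. Per array, 53.4% to 57.6% of all probes were detected. Over tested probes, Olig2cre/cre replicate 3 had a mean correlation of 0.907 with the other Olig2cre/cre tumours and a higher one, 0.930, with the Olig2cre/+ tumours. Olig2cre/cre replicate 1 had the lowest mean correlation with its own group, 0.899. The 1 Olig2 probe read 6.41, 5.86 and 6.44 in Olig2cre/cre tumours, against 7.76, 7.85 and 7.13 in Olig2cre/+ tumours, a difference of -1.34 ± 0.30 (SE, n = 3 per group) that missed the threshold (limma adjusted p = 0.0555). Whether that probe lies in the part removed by the cre allele is not known here.

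Genes for the transcriptional partners YAP, TAZ and TEAD2 and for the secreted proteins CTGF and CYR61 were higher in the Olig2cre/cre tumours. The target gene Amotl2, read by 1 probe near the detection floor, was not. Past the threshold, 5 of the 10 tested member probes rose and 0 fell, 1 probe each of Ctgf, Cyr61, Yap1, Wwtr1 and Tead2, where 4.42% of all tested probes passed, 2.65% as rises and 1.77% as falls (limma). In limma 0 of the 10 passed without Olig2cre/cre replicate 2 or without Olig2cre/+ replicate 1, 2 or 3, and 1 passed with no detection filter. In those fits with a tumour left out, 9, 9, 9 and 10 had an unadjusted p under 0.05. Of all tested probes, 20.8%, 21.8%, 16.8% and 18.6% did. With each gene taken at its brightest tested probe, 4 of 7 genes rose, where 4.78% of 9998 genes passed, 2.83% as rises and 1.95% as falls, since the brighter Wwtr1 probe did not. At each of the 10 probes the groups were separate, 9 higher and 1 lower in Olig2cre/cre, where 31.2% of all tested probes had separate groups, 15.8% higher and 15.4% lower. Probes of 1 gene share their transcript and are not separate evidence. In a bulk tumour, fewer cells of a type and less RNA per cell cannot be told apart.

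**Figure D1:**
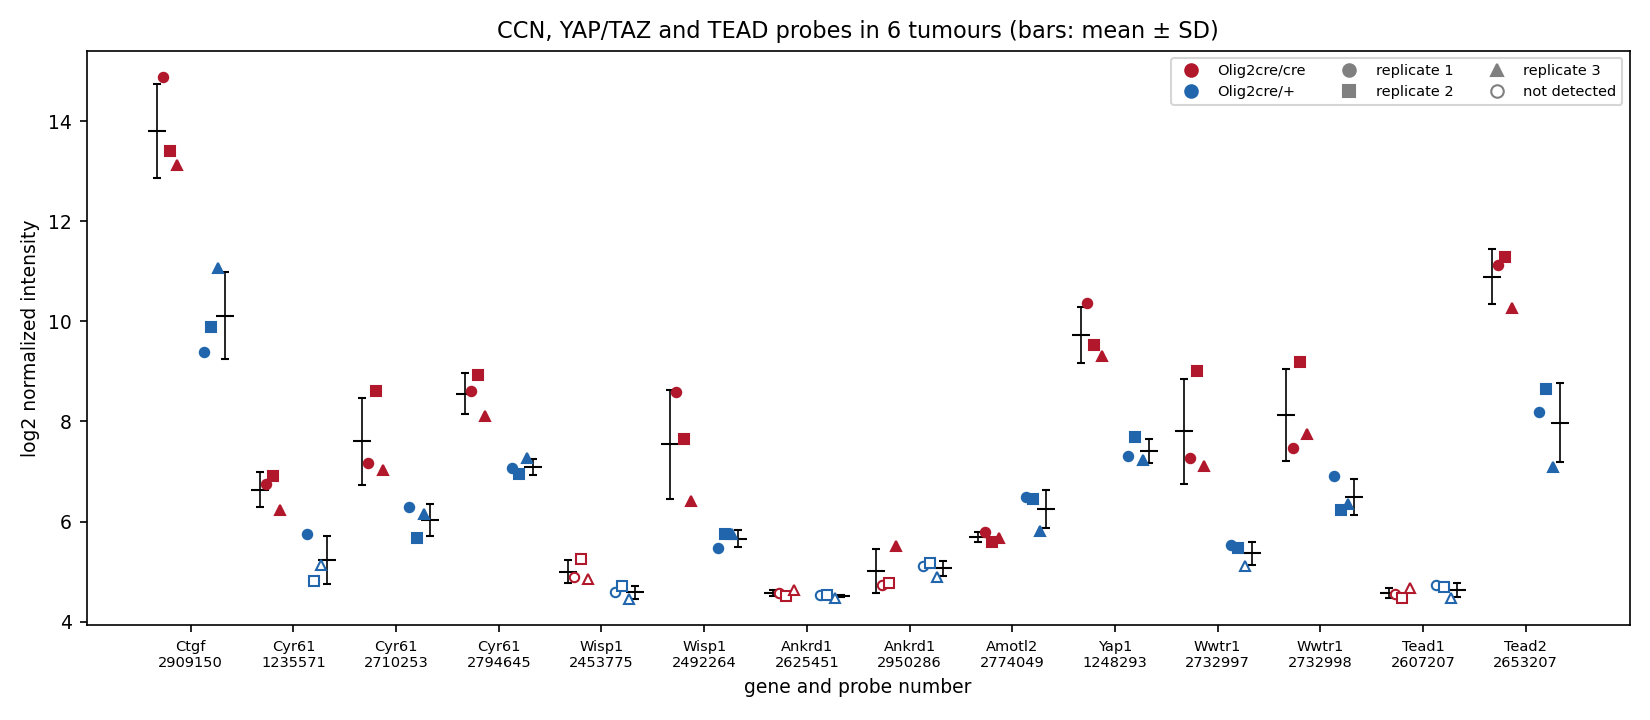
Normalized log2 intensity (vertical axis) of the 14 member probes (horizontal axis) in each tumour, with Olig2cre/cre in red and Olig2cre/+ in blue, a marker shape for each replicate, open markers where the probe was not detected, and bars at the mean ± SD of 3 tumours. The Ctgf values lie between 13.12 and 14.89 in Olig2cre/cre and between 9.38 and 11.08 in Olig2cre/+, while both probes of Ankrd1 and the probe of Tead1 lie near the bottom in both groups.

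Ctgf had the largest difference among the members. This gene encodes connective tissue growth factor, a matricellular protein of scar, cartilage and vessel walls. Its 1 probe (ILMN_2909150) read 14.89, 13.41 and 13.12 in the Olig2cre/cre tumours, against 9.38, 9.89 and 11.08 in the Olig2cre/+ tumours. Every Olig2cre/cre value lay at least 2 log2 units above every Olig2cre/+ value, and Olig2cre/cre replicate 1 was the highest. Ctgf rose 12.9-fold (log2 difference 3.69 ± 0.59, SE, n = 3 per group, 95% interval of the fold 4.91 to 34.1, limma adjusted p = 0.0282). Only 29 of the 14606 tested probes had a larger rise. The Ctgf call did not hold without Olig2cre/cre replicate 2 (3.89, adjusted p = 0.0762), without Olig2cre/+ replicate 1, 2 or 3 (3.33, 3.58 and 4.17, adjusted p = 0.0812, 0.137 and 0.0560) or with no detection filter (adjusted p = 0.0636).

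Cyr61, whose protein supports cell adhesion and vessel growth, was measured by 3 probes that all lay higher in Olig2cre/cre. The brightest (ILMN_2794645) read 8.61, 8.93 and 8.12 in Olig2cre/cre tumours, against 7.07, 6.94 and 7.26 in Olig2cre/+ tumours. The lowest Olig2cre/cre value, in replicate 3, was still above the highest Olig2cre/+ value. This probe rose 2.75-fold (log2 difference 1.46 ± 0.28, SE, n = 3 per group, 95% interval of the fold 1.74 to 4.34, limma adjusted p = 0.0404). The other 2 probes differed by 1.57 ± 0.45 (ILMN_2710253, adjusted p = 0.0911) and 1.40 ± 0.33 (ILMN_1235571, adjusted p = 0.0606) and did not pass, and ILMN_1235571 was detected on 3 Olig2cre/cre arrays and 1 Olig2cre/+ array. When its undetected values were set to the array's lowest detected signal, ILMN_1235571 differed by 1.18. The call of the brightest probe did not hold with any tumour left out other than Olig2cre/cre replicate 3 (1.27 to 1.55, adjusted p = 0.0788 to 0.182), with no background correction (0.91, adjusted p = 0.0540) or with no detection filter (adjusted p = 0.0582).

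Wisp1, a CCN gene first known as a target of Wnt signalling, gave no call. Its detected probe (ILMN_2492264) read 8.58, 7.65 and 6.40 in Olig2cre/cre tumours, against 5.46, 5.75 and 5.76 in Olig2cre/+ tumours. The Olig2cre/cre tumours were spread over more than 2 log2 units and all lay above the Olig2cre/+ tumours. The difference was 1.89 ± 0.52 (SE, n = 3 per group, 95% interval 0.66 to 3.11, limma adjusted p = 0.0853). It passed without Olig2cre/cre replicate 3 (2.46, adjusted p = 0.0104) and with array weights (1.71, adjusted p = 0.0356). The other Wisp1 probe (ILMN_2453775) was not detected on any array.

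Yap1 rose in the Olig2cre/cre tumours. Its 1 probe (ILMN_1248293) read 10.37, 9.52 and 9.30 in Olig2cre/cre tumours, against 7.31, 7.69 and 7.24 in Olig2cre/+ tumours. All 3 Olig2cre/cre values lay more than 1 log2 unit above the highest Olig2cre/+ value. The rise was 4.99-fold (log2 difference 2.32 ± 0.34, SE, n = 3 per group, 95% interval of the fold 2.88 to 8.63, limma adjusted p = 0.0203), the smallest adjusted p of the members. It did not pass without Olig2cre/cre replicate 2 (2.42, adjusted p = 0.0611) or without Olig2cre/+ replicate 1, 2 or 3 (2.27, 2.46 and 2.23, adjusted p = 0.0748, 0.0972 and 0.0814).

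Wwtr1, which encodes the YAP paralogue TAZ, was measured by 2 probes with unequal results. The dimmer (ILMN_2732997) read 7.28, 9.02 and 7.11 in Olig2cre/cre tumours, against 5.52, 5.47 and 5.11 in Olig2cre/+ tumours, where it was detected on 2 of 3 arrays. It rose 5.41-fold (log2 difference 2.43 ± 0.51, SE, n = 3 per group, limma adjusted p = 0.0478), or by 2.39 on the log2 scale with the undetected value set to its array's lowest detected signal. The brighter (ILMN_2732998) read 7.47, 9.18 and 7.74 in Olig2cre/cre tumours, against 6.91, 6.23 and 6.36 in Olig2cre/+ tumours. Both probes were highest in Olig2cre/cre replicate 2, and neither group overlapped the other. The brighter probe differed by 1.63 ± 0.47 (SE, n = 3 per group, 95% interval 0.51 to 2.75) and did not pass (limma adjusted p = 0.0922). The call of the dimmer probe did not hold with any tumour left out other than Olig2cre/cre replicate 3 (1.83 to 2.70, adjusted p = 0.0520 to 0.181), with no background correction (1.08, adjusted p = 0.123), with an offset of 50 (1.80, adjusted p = 0.0664) or with no detection filter (adjusted p = 0.0973).

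Tead2 rose and was the TEAD gene with a tested probe. TEAD2 is the family member known for expression in neural progenitors of the embryonic brain. Its probe (ILMN_2653207) read 11.12, 11.29 and 10.26 in Olig2cre/cre tumours, against 8.18, 8.64 and 7.10 in Olig2cre/+ tumours. The lowest value of all was in Olig2cre/+ replicate 3, the tumour with the highest Ctgf value of its group. Tead2 rose 7.55-fold (log2 difference 2.92 ± 0.46, SE, n = 3 per group, 95% interval of the fold 3.53 to 16.1, limma adjusted p = 0.0275), and 90 tested probes had a larger rise. It did not pass with any tumour left out other than Olig2cre/cre replicate 3 (2.48 to 3.25, adjusted p = 0.0567 to 0.0962) or with no detection filter (adjusted p = 0.0588). The probe of Tead1 (ILMN_2607207) was not detected on any array, which gives no level for that gene, and the probes of Tead3 and Tead4 were likewise detected on 0 arrays.

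Of the textbook targets Amotl2 and Ankrd1, the first gave no call and the other was too dim to be tested. Amotl2 encodes an angiomotin-family protein that binds YAP at cell junctions and is itself a YAP target. Its probe (ILMN_2774049) read 5.79, 5.58 and 5.68 in Olig2cre/cre tumours, against 6.49, 6.45 and 5.81 in Olig2cre/+ tumours. The groups were separated by a narrow gap, with Olig2cre/+ replicate 3 close to the Olig2cre/cre values. This probe was detected on all 6 arrays but read near the floor in Olig2cre/cre. The lowest detected values of any probe on those arrays were 5.51, 5.34 and 5.35. The difference was -0.57 ± 0.27 (SE, n = 3 per group, 95% interval -1.20 to 0.06, limma adjusted p = 0.241). Ankrd1, an ankyrin-repeat protein induced in stretched heart muscle, was detected on 1 of 6 arrays by ILMN_2950286, at 5.51 in Olig2cre/cre replicate 3, and on 0 arrays by ILMN_2625451. No fold is given for Ankrd1 or Tead1, whose probes were too dim to be tested.

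**Figure D2:**
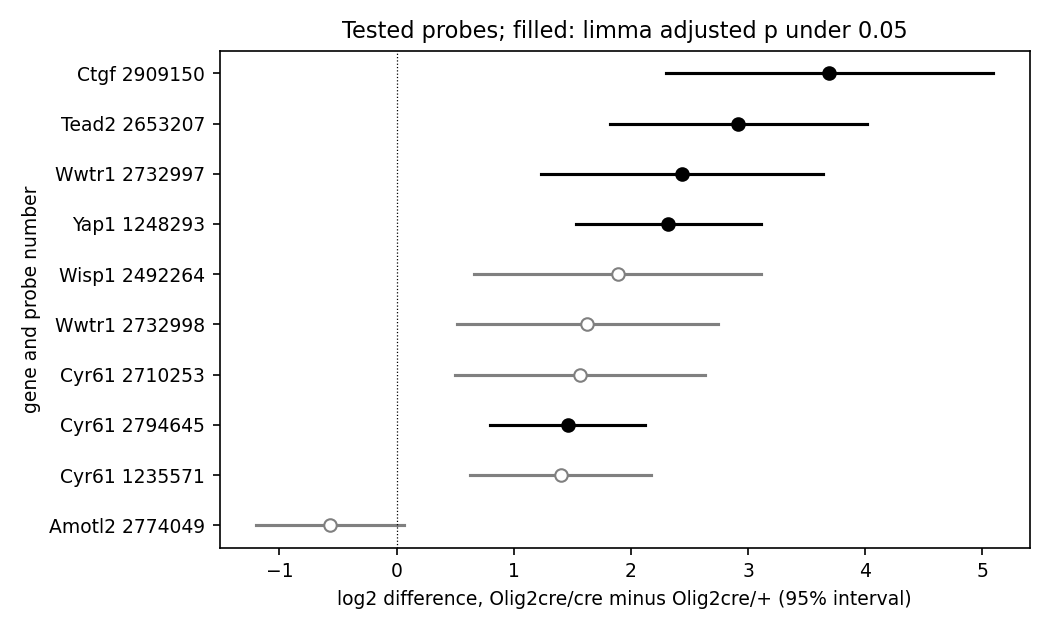
Log2 difference between Olig2cre/cre and Olig2cre/+ tumours (horizontal axis, point and 95% interval) of the 10 tested member probes (vertical axis), with filled points where the limma adjusted p was under 0.05. The points run from -0.57 for Amotl2 to 3.69 for Ctgf, and the interval of Amotl2 is the one that includes 0.

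The members did not vary alike among the Olig2cre/cre tumours. Of the 9 probes that were higher in that group, 3 were highest in replicate 1, those of Ctgf, Wisp1 and Yap1, and 6 were highest in replicate 2, those of Cyr61, Wwtr1 and Tead2. Replicate 3 gave the lowest Olig2cre/cre value for 8 of the 9 probes. The exception was the brighter Wwtr1 probe, which was lowest in replicate 1. Replicate 3 resembled the Olig2cre/+ tumours over all tested probes. Since the groups were separate, it read above every Olig2cre/+ tumour at each of the 9 probes.

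Other genes of the pathway were taken from 3 lists that share some genes, with 61 genes in all, of which 33 had a tested probe. Among these 33 genes, 2 rose and 0 fell, and 26 had a higher mean in Olig2cre/cre. Of all 9998 tested genes, 2.83% rose, 1.95% fell and 50.2% had a higher mean in Olig2cre/cre, and a count of 2 is not read as a result about these genes. Their median log2 difference was 0.47, beside 0.00 over all tested genes. The list of further YAP/TAZ target genes had 16 tested genes, of which 2 rose, 0 fell and 14 did not pass, with a median of 0.68. Fstl1, a secreted follistatin-like glycoprotein, read 13.24, 11.67 and 12.18 in Olig2cre/cre tumours, against 9.56, 9.23 and 9.04 in Olig2cre/+ tumours, and rose 8.51-fold (log2 difference 3.09 ± 0.42, SE, n = 3 per group, limma adjusted p = 0.0173). Tgfbr2, the type II receptor for TGF-beta, read 13.22, 11.80 and 12.32 in Olig2cre/cre tumours, against 10.29, 10.08 and 10.44 in Olig2cre/+ tumours, and rose 4.51-fold (log2 difference 2.17 ± 0.38, limma adjusted p = 0.0322). A further Tgfbr2 probe differed by 1.65 and did not pass (adjusted p = 0.0718). Without Olig2cre/+ replicate 1, 2 or 3 neither call held (adjusted p = 0.0660, 0.0996 and 0.0743 for Fstl1 and 0.0950, 0.156 and 0.102 for Tgfbr2), and with no detection filter the Tgfbr2 call did not (adjusted p = 0.0638). Both genes belong to other pathways too. The target genes Thbs1 and F3 were detected on 0 arrays, and Areg had no named probe.

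The Hippo pathway regulators gave no call. Of 30 genes listed, 22 had a probe and 16 were tested, with 13 of them higher in the mean of Olig2cre/cre and a median of 0.34. None passed in limma. At an unadjusted p under 0.05, 6 of the 16 (37.5%) were higher, beside 12.2% of all tested genes higher and 13.8% lower. Of these 6, Fat4 and Fat1 were detected on 3 Olig2cre/cre arrays and on 0 and 1 Olig2cre/+ arrays. Both met the detection filter through the group where they were higher, so their direction is not support. Sav1, the scaffold of the MST kinases, averaged 11.16 ± 0.29 in Olig2cre/cre and 9.97 ± 0.35 in Olig2cre/+ (SD, n = 3 each, limma adjusted p = 0.0631). Limd1, a LIM protein that binds LATS kinases, averaged 11.19 ± 0.25 in Olig2cre/cre and 9.64 ± 0.70 in Olig2cre/+ (SD, n = 3 each, limma adjusted p = 0.0670). Frmd6, an upstream FERM-domain protein, averaged 11.12 ± 1.17 in Olig2cre/cre and 9.35 ± 0.19 in Olig2cre/+ (SD, n = 3 each, limma adjusted p = 0.108). A further Frmd6 probe differed by 0.54 ± 0.22 (SE, n = 3 per group, limma adjusted p = 0.184). The kinase gene Lats2 and the tumour suppressor gene Nf2 were detected on 0 arrays, and Lats1 and Stk3 had no named probe.

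The 2 tested genes of the remaining CCN and TEAD family gave no call in limma, and 0 had an unadjusted p under 0.05. Wisp2, a CCN gene that lacks the C-terminal domain of the others, averaged 5.59 ± 0.57 in Olig2cre/cre and 5.56 ± 0.72 in Olig2cre/+ (SD, n = 3 each, limma adjusted p = 0.976), and was detected on 2 Olig2cre/cre arrays and 1 Olig2cre/+ array. Vgll4, a TEAD-binding protein that competes with YAP, averaged 8.70 ± 0.31 in Olig2cre/cre and 8.67 ± 0.34 in Olig2cre/+ (SD, n = 3 each, limma adjusted p = 0.964).

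**Figure D3:**
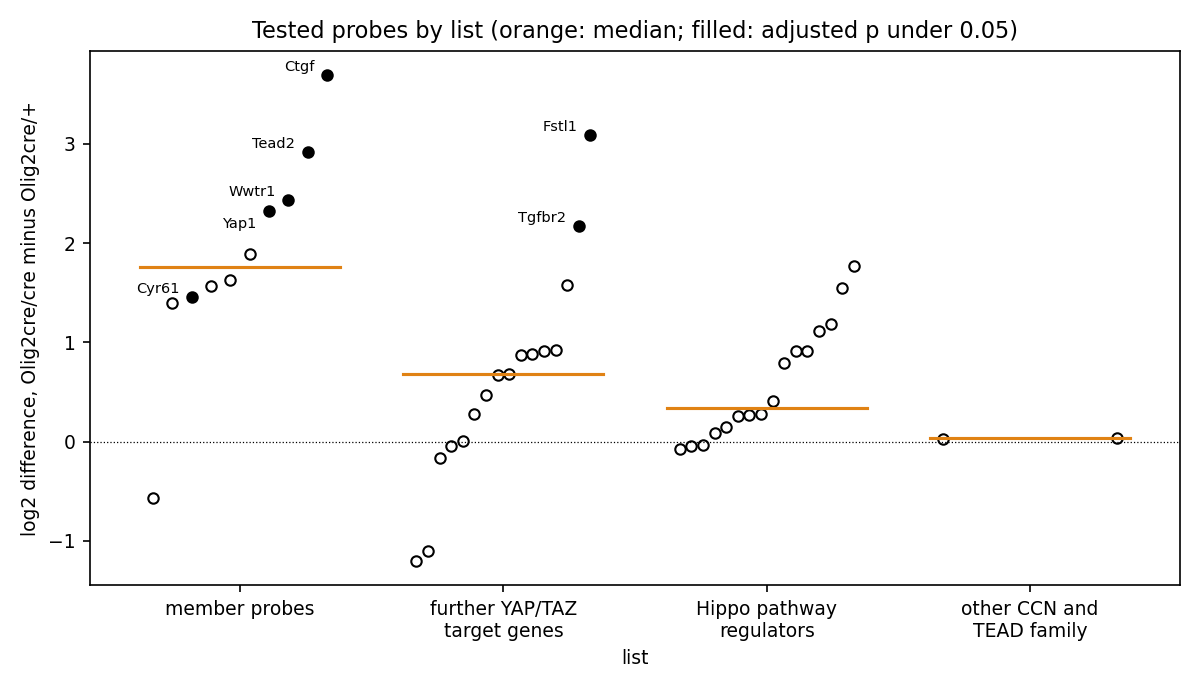
Log2 difference between Olig2cre/cre and Olig2cre/+ tumours (vertical axis) of the tested member probes and of the tested genes of the 3 pathway lists (horizontal axis), with orange lines at the medians and filled, named points where the limma adjusted p was under 0.05. Fstl1 and Tgfbr2 are the filled points outside the members, and the Hippo pathway regulators have none.

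Cell type markers moved with the groups. The summed normalized intensity of 13 endothelial markers ran from 6658 to 10886 in Olig2cre/cre tumours, against 3336 to 4943 in Olig2cre/+ tumours. Of these, 4 of 11 tested markers rose, where 2.83% of all tested genes rose. At an unadjusted p under 0.05, 7 (63.6%) were higher, beside 12.2% of all tested genes. Tie1, which was called, and Cdh5, which was not, were each detected on 3 Olig2cre/cre arrays and 1 Olig2cre/+ array. Both met the detection filter through the group where they were higher. Flt1, Ly6c1 and Slco1a4 had lower means in Olig2cre/cre (log2 differences -0.16, -0.03 and -0.45). The sum of 13 pericyte and fibroblast markers ran from 5133 to 10605 in Olig2cre/cre, against 2440 to 3672 in Olig2cre/+. Here 1 of 8 tested markers rose, and 6 (75%) were higher at an unadjusted p under 0.05, beside 12.2% of all tested genes. Of these 6, Col3a1 was detected on 0 Olig2cre/+ arrays, Abcc9 and Pdgfrb on 2, and each on 3 Olig2cre/cre arrays. Cspg4 and Dcn had lower means (-0.96 and -1.44), and Col1a2 and Tagln were not detected on any array. For 10 markers of microglia and macrophages the sums ran from 11690 to 26491 in Olig2cre/cre, against 5950 to 9082 in Olig2cre/+, with 1 of 9 tested markers rising. That marker was Lyz2, the macrophage lysozyme gene, and without it, a check chosen after seeing the data, the sums overlapped, at 7068 to 19445 in Olig2cre/cre and 5001 to 7666 in Olig2cre/+. The groups were separate for 2 of the 9 tested markers, 22.2%, where they were for 32.5% of all tested genes.

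Neuron and oligodendrocyte markers lay the other way. The sum of 14 neuron markers ran from 6486 to 44443 in Olig2cre/cre, against 49776 to 103261 in Olig2cre/+, and 0 of 12 tested markers passed in limma, with 9 (75%) lower at an unadjusted p under 0.05, beside the 13.8% of all tested genes. The sum of 11 oligodendrocyte markers ran from 2987 to 50123 in Olig2cre/cre, against 66942 to 73507 in Olig2cre/+. Of these, 3 of 10 tested markers fell, where 1.95% of all tested genes fell. Opalin, 1 of the 3, was detected on 1 Olig2cre/cre array and 3 Olig2cre/+ arrays. It met the detection filter through the group where it was higher. Snap25 and Nefl among the neuron markers and Ermn among the oligodendrocyte markers were not detected on any array. Astrocyte markers overlapped between the groups, with sums of 53513 to 70513 in Olig2cre/cre and 42788 to 53586 in Olig2cre/+, and 0 of 10 tested markers passed in limma (1 higher and 1 lower at an unadjusted p under 0.05, 10% each). The 10 markers of ependyma, choroid plexus and leptomeninges overlapped as well, with sums of 9219 to 34551 in Olig2cre/cre and 14134 to 27597 in Olig2cre/+.

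The part of these cell types in the differences of Ctgf, Cyr61, Yap1, Wwtr1 and Tead2 was not tested. Olig2cre/cre replicate 3 had a neuron sum of 44443 and an oligodendrocyte sum of 50123, the closest of its group to the Olig2cre/+ tumours, and read 13.12 for Ctgf, 9.30 for Yap1 and 10.26 for Tead2. These readings were above the highest Olig2cre/+ readings of 11.08, 7.69 and 8.64, since the groups were separate at these probes. Its endothelial sum was 9515, its pericyte and fibroblast sum 7040 and its microglia and macrophage sum 13183, each inside the range of the Olig2cre/cre group. Readings of 1 tumour cannot tell these cell types apart.

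The genes whose values followed Ctgf, Tead2 and Yap1 most closely over the 6 tumours were found by Pearson correlation across representative probes. For Ctgf they were Actn1 (r = 0.998), which encodes an actin crosslinker of focal adhesions, Cyth3 (r = 0.997) and Pgap2 (r = 0.993). For Tead2 they were Slc35b3 (r = 0.999), the co-chaperone gene Bag3 (r = 0.996) and Irak3 (r = 0.994), a regulator of Toll-like receptor signals. For Yap1 they were the BMP receptor gene Acvr1 (r = 0.998), Fxyd5 (r = 0.997) and the matrix protease gene Mmp11 (r = 0.996). All 9 had higher means in Olig2cre/cre. The 6 tumours share the difference between the genotypes, and 425, 563 and 630 of 9839 genes had an r above 0.9 with Ctgf, Tead2 and Yap1, so these neighbours are a description of the pattern.

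**Figure D4:**
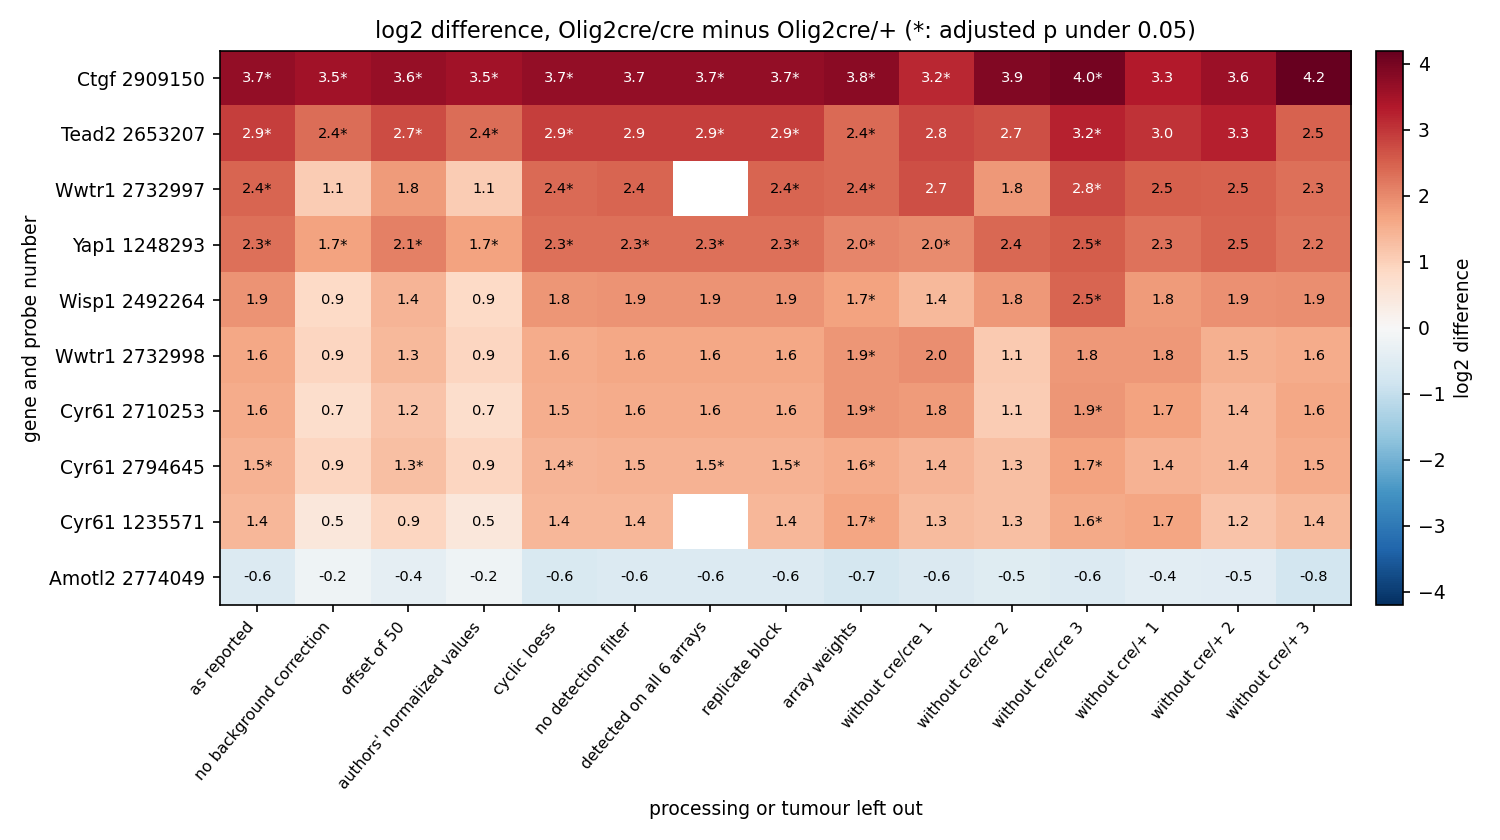
Log2 difference between Olig2cre/cre and Olig2cre/+ tumours (numbers and colours) of the 10 tested member probes (rows) as reported, under 8 other ways of processing and with each tumour left out (columns), with stars where the limma adjusted p was under 0.05 and blank cells where a probe was not tested. Each probe keeps its direction in every filled cell, fixed in advance for filters, replicate block, array weights and left-out tumours. The columns for no background correction and for the authors' values are the same fit. No star remains without Olig2cre/cre replicate 2 or without any of the Olig2cre/+ replicates.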

How the data were processed

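The authors deposited linear signal intensity values for each probe, not normalized between arrays, with a detection p-value beside each signal, per the file headers. Per the labels' protocols, Trizol-extracted total RNA was labelled as biotinylated cRNA. Sources used here do not give scanner software, slides or scan dates. Background was removed with normexp (offset 16), using negative controls that neqc infers from detection p-values, followed by quantile normalization and log2 (limma 3.58.1, R 4.3.3). Probes detected (detection p-value below 0.05) by 3 or more of 6 arrays entered a limma fit (lmFit, eBayes, two-sided) with genotype as its only term, and the fit was tested on simulated data. The number of arrays limits the precision. A second deposited table from the authors holds normalized intensity values. Its columns equalled the quantile-normalized signals, but with numbers 1 and 3 exchanged within both genotypes, so tumours are numbered as in the table of signals and the ages of numbers 1 and 3 are uncertain. Probes were named from the platform annotation, 23962 of 23978 named ones updated through RefSeq (GRCm38.p6), and 1719 were unnamed here. A gene of a list was represented by its brightest tested probe. All member probes were named. From each pathway list, up to 6 genes past the threshold were named, or, where fewer than 2 passed, up to 3 of smallest p. For the 3 members with the largest differences among those detected on all arrays, the 3 most correlated genes were named, without predicted or clone names. The members, lists and rules were chosen with earlier results of these data known. Alternatives changed the background correction, offset, normalization, filter, replicate block, array weights and tumours.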

Additional observations from a re-analysis of the deposited data

How the results depend on the processing

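The direction of every tested member probe was the same in all 138 values computed under 14 alternatives, but the calls were not: 32 values lost a call and 7 gained one. Most of these directions were fixed in advance. The changed filters and the replicate block refitted the same values. With separate groups, array weights or a tumour left out cannot change a sign. A change of direction was possible under the other background, offset and normalization settings only. Over all probes, 645 passed as reported, 411 without background correction, 230 with no detection filter and 1860 with array weights, and between 9 and 1922 with 1 tumour left out. The authors' normalized values equal the quantile-normalized signals, so their fit repeats the one without background correction and is not a separate check. Of the member probes, 5 passed as reported, 3 without background correction, 1 with no detection filter (that of Yap1), 9 with array weights, and 0 to 8 with 1 tumour left out. The count was 2 without Olig2cre/cre replicate 1, 8 without Olig2cre/cre replicate 3 and 0 in limma without Olig2cre/cre replicate 2 or Olig2cre/+ replicate 1, 2 or 3, where 9, 9, 9 and 10 of the 10 probes had an unadjusted p under 0.05, beside 20.8%, 21.8%, 16.8% and 18.6% of all tested probes. Of the pathway list genes, 2 passed as reported, 1 with no detection filter, 5 with array weights and 0 to 4 with 1 tumour left out, with 0 in limma without any of the Olig2cre/+ replicates (10, 7 and 6 of 33 at an unadjusted p under 0.05, beside 22.4%, 17.3% and 19.2% of all tested genes). The cause of these changes was not tested. With the replicate block, 1382 probes and 5 pathway list genes passed, and the number of member probes past the threshold stayed at 5. The same-numbered tumours deviated together at r = 0.194, 0.017 and 0.302, against -0.297 to 0.101 for tumours of different numbers. Same-numbered tumours also share an age in the labels. Whether the numbers mark pairs is not known here. The share of calls higher in Olig2cre/cre was 60% as reported, 70.1% among probes detected on all 6 arrays, 43.4% with the replicate block and 44.4% without Olig2cre/cre replicate 3. Signal over background kept 4 member probes, of Wisp1, Ankrd1 and Tead1, from being tested.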
